A study of Mus musculus with 8 samples.

Results

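The genes described here are Krt7, Krt8, Krt18 and Krt19, which encode keratins of simple epithelia, and Dsp, which encodes desmoplakin. They were taken by their symbol in the platform annotation. All 5 genes had a probe set of their own, 7 probe sets in all, among 13069 probe sets and 6137 named genes on both chips: 6 on chip A and 1, for Krt8, on chip B. No member shared a probe set with another gene symbol. All 7 were above the floor, the intensity under which a signal was not read, on all 4 arrays of their chip. The floor was 1023 on chip A and 2258 on chip B. Transcripts were measured in the epididymal fat pad of the mouse lines DU6, DU6i, DUKs and DBA (4 in all), with 1 Affymetrix array of each chip per line. For each line the RNA of 20 males aged 42 days was pooled, no treatment is named, and all groups are epididymal fat. As general knowledge outside the labels, DU6 was bred for high body weight and DU6i was inbred from it. DUKs is their unselected control line and DBA an inbred strain. Each line has 1 pool, so no value below has a replicate and pooling hides the differences between animals. Precision is limited by the number of arrays. In RNA from whole tissue, fewer cells of a type and less RNA per cell cannot be told apart.

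Keratins form the intermediate filaments of epithelial cells. A filament is built from a type II keratin paired with a type I keratin. Krt7 and Krt8 are type II and Krt18 and Krt19 are type I, and Krt8 with Krt18 is the basic pair of simple epithelia. Desmoplakin anchors these filaments to desmosomes, the spot junctions that hold neighbouring epithelial cells together. In a fat pad, keratins are known from the mesothelium, the cell layer that covers it. The duct epithelium of the neighbouring epididymis makes them as well, while adipocytes and fibroblasts build their filaments from vimentin.

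In the RefSeq gene table for GRCm38.p6, Krt8 and Krt18 are neighbours on chromosome 15 with no coding gene between them, and Krt7 lies on the same chromosome. The 250 bases before the annotated start are shown for the 4 members with a RefSeq promoter entry (GRCm38.p6), 5′ to 3′ on the gene's own strand. A shared control of these genes was not tested. Krt7 lies at chr15:101412153-101412402 (plus strand), Krt8 at chr15:102004343-102004592 (minus strand), Krt18 at chr15:102027966-102028215 (plus strand) and Dsp at chr13:38151044-38151293 (plus strand). Capitals mark matches on either strand to the E box letters CAGGTG (or CACCTG) and the GC box letters GGGCGG (or CCGCCC).
Krt7: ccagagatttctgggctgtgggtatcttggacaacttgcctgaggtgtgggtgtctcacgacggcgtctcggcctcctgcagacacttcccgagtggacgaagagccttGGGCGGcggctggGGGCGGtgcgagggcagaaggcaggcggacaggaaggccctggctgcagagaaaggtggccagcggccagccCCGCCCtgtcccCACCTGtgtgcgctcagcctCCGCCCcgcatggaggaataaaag
Krt8: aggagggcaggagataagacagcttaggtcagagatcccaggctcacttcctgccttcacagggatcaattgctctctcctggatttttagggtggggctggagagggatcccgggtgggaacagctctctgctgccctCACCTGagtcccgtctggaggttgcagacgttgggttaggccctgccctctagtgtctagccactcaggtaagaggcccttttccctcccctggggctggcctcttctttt
Krt18: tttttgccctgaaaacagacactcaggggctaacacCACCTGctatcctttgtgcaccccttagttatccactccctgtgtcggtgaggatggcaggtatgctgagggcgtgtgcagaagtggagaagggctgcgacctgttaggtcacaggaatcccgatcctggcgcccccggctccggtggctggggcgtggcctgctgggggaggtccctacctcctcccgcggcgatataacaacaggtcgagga
Dsp: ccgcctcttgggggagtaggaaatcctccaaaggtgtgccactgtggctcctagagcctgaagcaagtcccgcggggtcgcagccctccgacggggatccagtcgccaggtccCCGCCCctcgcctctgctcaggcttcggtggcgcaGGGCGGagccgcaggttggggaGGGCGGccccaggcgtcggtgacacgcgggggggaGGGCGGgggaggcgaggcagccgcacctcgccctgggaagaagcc

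An E box match was found before Krt7, Krt8 and Krt18, at 44, 111 and 214 bases before the start at its far end. Of 32851 promoter windows of this length, 17.2% held one. Krt7 and Dsp each had 4 GC box matches, against none before Krt8 and Krt18, and 32.7% of all windows held at least 1. Neither TATAAA, held by 12.4% of windows, nor the AP-1 letters TGANTCA, held by 6.75%, was found in the 4 windows on either strand. The motifs were chosen with the sequences in view, and a match is a description of letters only.

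All 5 genes were highest in DBA, and 4 of them were lowest in DU6i. Of the type II keratins, Krt8 was read on both chips. On chip A its intensity was 7178 in DU6, 3836 in DU6i, 5345 in DUKs and 9432 in DBA. The chip B probe set gave 12163 in DU6, 5714 in DU6i, 6152 in DUKs and 16360 in DBA. On both chips the order was DBA, DU6, DUKs, DU6i. Krt7 had intensities of 2552 in DU6, 1392 in DU6i, 2484 in DUKs and 4086 in DBA. DU6 and DUKs were alike for this keratin, with DBA above them and DU6i below.

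Of the type I keratins, Krt18 had intensities of 4736 in DU6, 2066 in DU6i, 3078 in DUKs and 7959 in DBA. Its order of lines was that of its partner Krt8, and DBA stood 3.85-fold above DU6i. Krt19, a small keratin known from ducts and mesothelium, had 5825 in DU6, 4976 in DU6i, 3704 in DUKs and 9134 in DBA. Krt19 was thus highest in DBA like the others but lowest in DUKs, 2.47-fold under DBA.

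Dsp was measured by 2 probe sets of chip A. The first gave 3826 in DU6, 1094 in DU6i, 2482 in DUKs and 6033 in DBA. The other gave 4118, 1236, 2626 and 5091. By both, DU6i was set apart from the other lines and lay only just above the floor. From lowest to highest line Dsp ranged 5.51-fold and 4.12-fold, Krt18 3.85-fold, Krt7 2.93-fold and Krt8 2.46-fold on chip A. With the floor doubled, the Dsp signals in DU6i fell under it, and its log2 ratios of DU6i to DBA were -1.56 and -1.32, against -1.95 for Krt18.

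**Figure D1:**
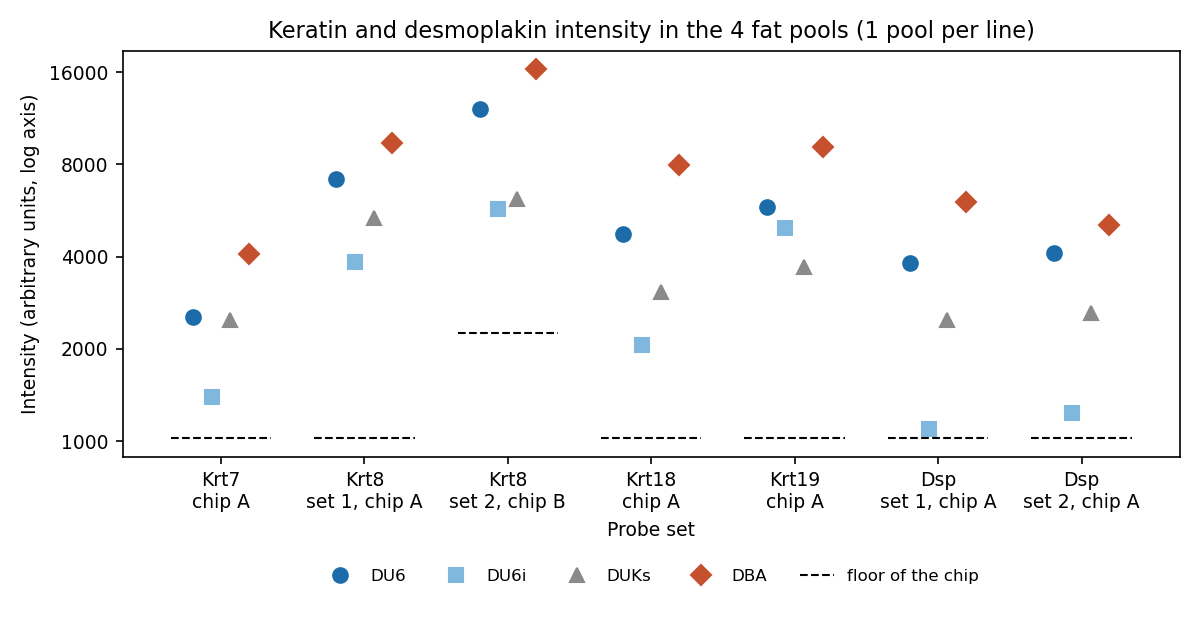
Intensity (log axis, arbitrary units) of the 7 probe sets of Krt7, Krt8, Krt18, Krt19 and Dsp in the pools of DU6, DU6i, DUKs and DBA, 1 point per array, with the floor of each chip as a dashed line (1023 on chip A, 2258 on chip B). The DBA point is the highest in all 7 probe sets, and the DU6i point is the lowest in all but Krt19. Points are compared within a probe set, not between probe sets.

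Counted by probe set, 7 of 7 were highest in DBA, as were 26.0% of the 6075 probe sets with at least 1 array above the floor. Lowest in DU6i were 6 of 7, against 22.4% of all. The full order DBA, DU6, DUKs, DU6i was found in 6 of 7, against 5.94% of all; it was 5 of 7 when arrays were scaled to the median of their signals above the floor, where DUKs passed DU6 for Krt7. Probe sets under the floor in more than 1 line were tied there. They could be neither lowest in DU6i nor in the full order, which lowers those shares of all probe sets. The members were above the floor in all 4 lines. The 7 probe sets are 5 genes in the same 4 pools and not independent observations.

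The error of a single log2 ratio was taken from genes with exactly 2 probe sets, both above the floor on both arrays of the pair. Its SD was 0.33 in DU6i vs DBA (295 genes) and between 0.36 and 0.45 in the other 5 pairs (291 to 307 genes). This SD covers differences between probe sets, not between animals or pools. A difference is called resolved here when it exceeds 2 SDs, which is 1.59-fold in DU6i vs DBA and up to 1.85-fold elsewhere. Of the 21 steps between neighbouring lines in the members' orders, 5 were resolved in this sense. These were DUKs over DU6i for Krt7 and for both probe sets of Dsp, DU6 over DUKs for Krt8 on chip B, and DBA over DU6 for Krt18. The other 16 neighbours, among them DU6 and DUKs for Krt7 (1.03-fold) and DUKs and DU6i for Krt8 on chip B (1.08-fold), did not differ beyond it. With the floor doubled, the log2 ratios of DU6i to DUKs were -0.28 for Krt7 and -0.28 and -0.36 for Dsp, inside the limit of 0.81. The share of resolved steps over all probe sets was not counted.

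The title of the series names DU6 with DU6i and DUKs with DBA, and DU6 vs DUKs and DU6i vs DBA were taken as the main pairs. In DU6i vs DBA the simple keratins and desmoplakin were low in DU6i. Dsp was 5.51-fold and 4.12-fold lower by its probe sets, Krt18 3.85-fold, Krt7 2.93-fold, Krt8 2.86-fold (chip B) and 2.46-fold (chip A), and Krt19 1.84-fold. The 7 log2 ratios had a median of -1.55, beside -0.03 for all 5556 probe sets measured in the pair. At least 2-fold lower were 6 of 7, where 6.68% of all probe sets were, and 7 of 7 were lower by more than 2 SDs, against 14.3% of all. The members' difference between DU6i and DBA was not the same for all. Krt19 was lowered less than Krt18 by 1.07 and less than Dsp by 1.59 in log2, beyond a limit of 0.95 for a difference of 2 ratios. With the floor doubled, Krt19 (-0.88) and Dsp (-1.56) were apart by less than that limit. On the scale of log2(intensity + floor), Krt19 (-0.76) and Krt18 (-1.54) were apart by less than it. With the floor doubled, Krt7 fell just short of 2-fold (log2 ratio -0.998) and 3 genes were at 2-fold or more in place of 4.

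In DU6 vs DUKs the same transcripts lay on the other side. All 7 probe sets were higher in DU6, where 54.1% of all were, and their log2 ratios had a median of 0.62 beside 0.05 for all 5604 probe sets. When arrays were scaled to the median of their signals above the floor, Krt7 turned to -0.08, and the median of all probe sets moved to -0.09. None reached 2-fold, where 3.91% of all probe sets did. The sizes ran from 1.03-fold for Krt7 to 1.98-fold for Krt8 on chip B, and between them lay Krt8 on chip A (1.34-fold), Krt18 (1.54-fold), both probe sets of Dsp (1.54-fold and 1.57-fold) and Krt19 (1.57-fold). Only Krt8 on chip B exceeded 2 SDs, as 6.01% of all probe sets did, and its probe set on chip A (log2 ratio 0.43 against 0.98) did not.

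DU6 with its inbred derivative DU6i gave a wider difference than DU6 with DUKs for all members but Krt19, which was 1.57-fold higher in DU6 than in DUKs. Dsp was 3.50-fold and 3.33-fold higher in DU6, Krt18 2.29-fold, Krt8 2.13-fold and 1.87-fold, Krt7 1.83-fold and Krt19 1.17-fold. At least 2-fold higher in DU6 were 4 of 7 probe sets, where 4.80% of all were. Krt19 differed from Dsp here by 1.58 in log2, beyond the limit of 1.26. With the floor doubled, the log2 ratios were 0.23 for Krt19 and 0.90 for the same Dsp probe set, apart by less than the limit. In DUKs vs DBA, 4 of 7 probe sets were at least 2-fold lower in DUKs, where 5.29% of all were. Krt8 was 2.66-fold lower on chip B and 1.76-fold on chip A, Krt18 2.59-fold, Krt19 2.47-fold, Dsp 2.43-fold and 1.94-fold and Krt7 1.65-fold. All comparisons that include a line share its array, so that these pairs are not independent of the main ones.

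**Figure D2:**
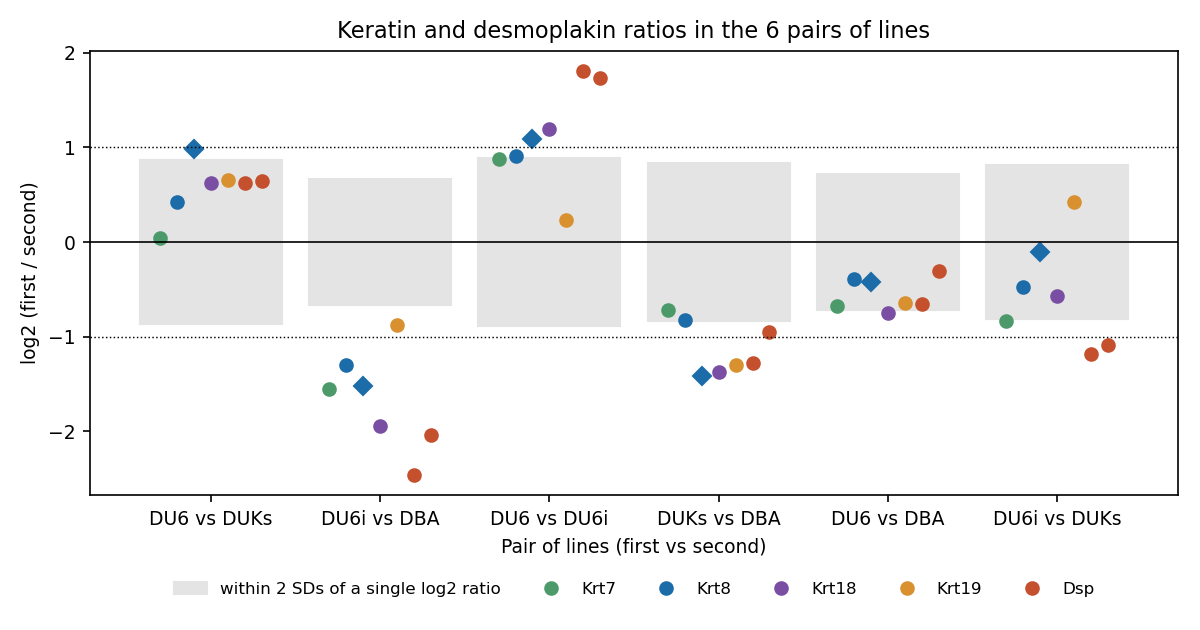
The log2 ratio of the first to the second line for the 7 probe sets in the 6 pairs of lines (circles for chip A, diamonds for chip B), with 2-fold as dotted lines and a grey band of 2 SDs of a single log2 ratio. In DU6i vs DBA all points lie under the band, at -0.88 to -2.46, whereas in DU6 vs DUKs they run from 0.04 to 0.98.

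A control transcript separated DU6 and DBA from DU6i and DUKs. For pyruvate carboxylase, the middle control probe set of chip A reached 15.3% of the 3' signal in the DU6 pool and 19.5% in the DBA pool. In the DU6i and DUKs pools it reached 54.5% and 53.9%. Of the other mouse controls, β-actin by its 5' probe set on chip B split the lines this way, at 36.3% and 52.7% of the 3' signal in DU6 and DBA against 58.1% and 60.2% in DU6i and DUKs. Its middle probe set on chip A did not, with 70.1% in DU6, 66.0% in DUKs, 47.2% in DBA and 46.3% in DU6i, nor did its other probe sets or those of Gapdh on either chip. The 99th percentile of intensity ran from 18810 in DU6 to 34793 in DU6i on chip A, and on chip B from 33622 in DBA and 34692 in DU6i to 49489 in DU6 and 52203 in DUKs. All 5 genes were higher in DBA and DU6, the lines with little such signal, than in DUKs and DU6i, though Krt7 in DU6 by only 1.03-fold over DUKs. The part of this in the result was not tested. DU6 vs DBA and DU6i vs DUKs are the pairs of lines alike in pyruvate carboxylase. In DU6 vs DBA 7 of 7 probe sets were lower in DU6, where 49.9% of all were, at 1.24-fold to 1.68-fold. None reached 2-fold, where 4.17% of all probe sets did, and only Krt18 exceeded 2 SDs, as 7.69% of all did. In DU6i vs DUKs, Dsp was 2.27-fold and 2.12-fold lower in DU6i and Krt7 1.78-fold, these 3 probe sets beyond 2 SDs, where 9.73% of all were. Dsp accounted for the only 2 probe sets at 2-fold or more, where 6.76% of all were, and Krt19 was 1.34-fold higher in DU6i. No Dsp ratio in that pair reached 2-fold after quantile normalisation, with the floor doubled, or on the scale of log2(intensity + floor). With the floor doubled or on that scale, neither Dsp nor Krt7 exceeded the 2 SDs of the pair (0.81 in log2). After quantile normalisation Krt7 did not either, at a log2 ratio of -0.63.

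Both DU6 lines together were tested against DUKs with DBA by limma. With 2 lines a side the spread is that between lines, and DU6i derives from DU6, so that the lines are not independent. The members were 0.11 to 0.92 lower in the DU6 lines on the log2 scale, with SEs between 0.42 and 0.69. The sides overlapped for all 7 probe sets, since DU6 lay above DUKs in each. None of the 7 passed (limma, unadjusted p from 0.118 to 0.816, adjusted p = 0.9998 for each), and 0% of the 5267 probe sets tested did, with 252 at an unadjusted p under 0.05. With so few lines an exact permutation test could not reach 0.05.

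Other genes of epithelial junctions and cell surfaces were read beside the members. Of 34 on the list, 21 had a probe set and 17 were above the floor on at least 1 array. Of these 17, 12 were highest in DBA, where 26.0% of all probe sets were. In DU6i vs DBA 14 of the 17 lay lower in DU6i, where 52.5% of all did, and their median log2 ratio was -0.99. At least 2-fold lower were 8 of the 17, where 6.68% of all were. Elf3 and Ocln were above the floor in DBA alone, which fixed their direction in these counts. Epcam, Cldn3, Cldn4, Lamb3, Spint1, Spint2, Esrp1 and Cd9 were above it in DBA but not in DU6i. That fixed their direction in DU6i vs DBA as well. Of the list genes above the floor in DU6i, Cdh1, Cdh3, Tjp1 and Cd24a were lower in DU6i than in DBA. Gjb1, Itga6 and Lama3 were higher. In DU6 vs DUKs 14 of the list were measured, 10 higher and 4 lower in DU6, none by 2-fold, with a median of 0.32. Of all probe sets 54.1% were higher in DU6, and 3.91% by 2-fold or more. Where a gene was under the floor in a line, the floor stands in for it in the median. Cdh1, which encodes E-cadherin of adherens junctions, had intensities of 6018 in DU6, 3919 in DU6i, 4721 in DUKs and 12772 in DBA. Its order was that of Krt8. Cd24a, a surface glycoprotein of epithelia and other cells, had 6915, 4785, 5769 and 12887 in the same order of lines. Spint2, an epithelial protease inhibitor, had 5448 in DU6, 1118 in DU6i, 3489 in DUKs and 6668 in DBA, so that DU6i lay at least 2.95-fold under DBA; its other probe set was under the floor on all arrays. Epcam, the epithelial adhesion molecule, was at least 3.35-fold lower, the epithelial transcription factor Elf3 at least 2.92-fold, Cd9 at least 2.30-fold, Spint1 at least 2.11-fold and the tight junction gene Ocln at least 2.01-fold; all were under the floor in DU6i. Itga6, an integrin of basal epithelial cells and of endothelium, went the other way, with 5540 in DU6i and a signal under the floor in DBA, at least 2.45-fold lower.

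Desmoplakin's partners were less uniform. Of 19 desmosome and plakin genes, 8 had a probe set and 4 were above the floor. The desmosomal cadherin Dsg2 had 1539 in DU6, 412 in DU6i, 1549 in DUKs and 3351 in DBA. It was lower in DU6i than in DBA by at least 3.28-fold, and Pkp4, a plakophilin, was 2.58-fold lower. Pkp2, another plakophilin, was highest in DU6 (7900) and lowest in DUKs (3189). Jup, which encodes plakoglobin, was highest in DUKs (6509) by 1 probe set and under the floor on all arrays by another.

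The other keratins were mostly under the floor. Of 23 other keratin genes on the chips, 6 were above it on at least 1 array. Krt1, of the epidermis, had 3568 in DU6, 1899 in DU6i, 3103 in DUKs and 1903 in DBA. Krt14, of basal epithelial cells, was above the floor in DBA alone (4098), by 1 of its 2 probe sets. Krt17 was above it in DU6 (1625) and DUKs (1741), Krt20 in DBA (1153), Krt25 in DU6i (1916) and DUKs (2239), and Krt72 in DU6 (1404). The other Krt17 probe set was above the floor in DUKs alone (1615), and the other 2 of Krt25 were under it on all arrays. Krt1, the only one of the 6 above the floor on all 4 arrays, was highest in DU6 and not in DBA. Among other intermediate filament genes, Vim, which encodes vimentin, had 27664 in DU6, 25028 in DU6i, 16545 in DUKs and 20184 in DBA, a 1.24-fold difference between DU6i and DBA. Lmna, of the nuclear lamina, was 1.27-fold higher in DU6i, and Des, of muscle, 1.42-fold.

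**Figure D3:**
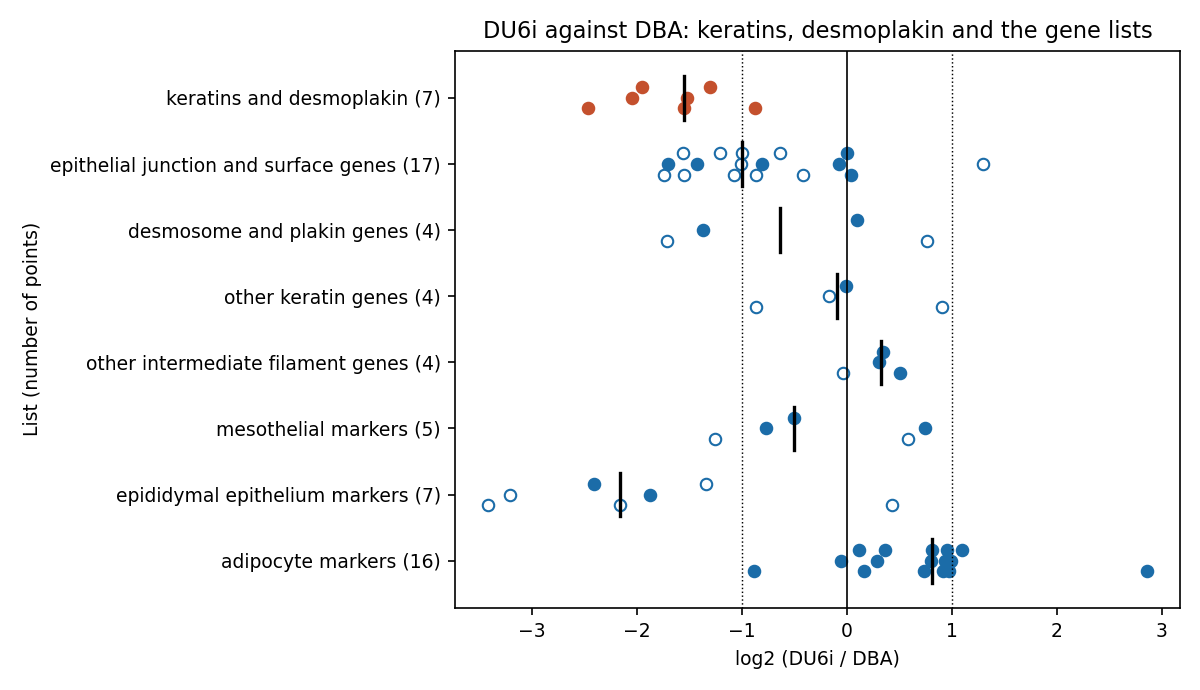
The log2 ratio of DU6i to DBA for the members (7 probe sets) and for the measured genes of 7 lists (1 probe set a gene; the number of points is given), with 2-fold as dotted lines and the median as a black bar. Open circles are bounds, where only 1 of the 2 arrays was above the floor. The members' median is -1.55, that of epithelial junction and surface genes -0.99, that of epididymal markers -2.15 and that of adipocyte markers 0.81.

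The pools held transcripts of other epithelia, which differed between the same lines. Of 22 epididymal genes on the list, 7 had a probe set and were above the floor on at least 1 array. Of the 7, 6 were lower in DU6i than in DBA by 2-fold or more, where 6.68% of all probe sets were (median log2 ratio of the 7, -2.15). Gpx5, Adam28, Ros1 and Pemt were under the floor in DU6i and above it in DBA, which fixed their direction in this count. Man2b2 went the other way, with 1376 in DU6i and a signal under the floor in DBA (780). Gpx5, the glutathione peroxidase of the epididymis, gave a signal below 0 in DU6i, against 52044 in DUKs, 49126 in DU6 and 20753 in DBA. Adam7, of the epididymal duct, had 19574 in DU6, 5914 in DU6i, 23896 in DUKs and 21665 in DBA. Both shared with the members the low level in DU6i, but neither was highest in DBA. Adam28 had 8176 in DU6, 1846 in DU6i, 5106 in DUKs and 24037 in DBA, in the order of Krt8. Ros1, of the initial segment, was above the floor in DBA alone (5719), which fixed its direction in DU6i vs DBA. Its other probe sets gave log2 ratios of -0.18 and -0.63 in that pair. Lcn2, made by epididymis and by other tissues, was 5.31-fold lower in DU6i than in DBA by its brighter probe set, which was highest in DU6. Its other probe set gave a log2 ratio of -3.95 in that pair, with 37640 in DBA, 27050 in DU6, 18557 in DUKs and 2432 in DU6i, the order of Krt8. Pemt, better known from liver, was at least 4.45-fold lower in DU6i. Summed with values below 0 counted as 0, the 4 list genes on chip B had an intensity of 107457 in DU6, 8933 in DU6i, 87608 in DUKs and 86521 in DBA. On chip A the sum over 3 genes was 26555, 7922, 28102 and 26996.

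Of 13 seminal vesicle and accessory gland genes, 8 had a probe set and 7 were above the floor. Svs4 (42807) and Svs5 (43837), secreted proteins of the seminal vesicle, and Svs2 were above it in DBA alone. Sbp (21028) and Spink1 (5876) were above it in DUKs alone. The summed intensity of the 5 genes on chip B was 946 in DU6, 2194 in DU6i, 26976 in DUKs and 107207 in DBA. On chip A it was between 2843 and 7428 for 3 genes. In DU6 and DU6i no gland gene on chip B was above the floor. Ceacam10 on chip A, above the floor in all 4 lines, had 7370 in DU6 and 2612 in DU6i, 2.82-fold higher in DU6, the direction of the members in that pair. Of 19 testis and germ cell genes, 16 had a probe set, and none of the 15 above the floor was highest in DBA, where 26.0% of all probe sets were. Their sum on chip A was 36487 in DU6, 31984 in DU6i, 134978 in DUKs and 72034 in DBA. The part of RNA from the male tract in the members' levels was not tested.

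Mesothelial markers did not share the members' order as a group. Of 14 on the list, 7 had a probe set and 5 were above the floor on at least 1 array. Wt1, a transcription factor of mesothelium, had 4797 in DU6, 3928 in DU6i, 6150 in DUKs and 6683 in DBA. Upk3b, a mesothelial surface protein, had 3326, 2787, 5253 and 3942. Both were lowest in DU6i, by 1.70-fold and 1.41-fold under DBA. Pdpn, podoplanin, which lymphatic vessels make as well, lay at least 2.38-fold under DBA in DU6i. Its intensities were 1585 in DU6, 861 in DU6i, 1467 in DUKs and 2436 in DBA, and it was the 1 of the 5 in the order of Krt8. Slpi, a protease inhibitor of many epithelia, was 1.68-fold higher in DU6i. The other probe set of Wt1 was above the floor in DUKs alone, and that of Slpi on no array. The defining marker Msln was above the floor in DU6 and DU6i (1520 and 1536) and under it in DUKs and DBA. The summed intensity of the list on chip A (5 genes) was 18781 in DU6, 14659 in DU6i, 16142 in DUKs and 13067 in DBA. Slpi alone gave 11956, 9235, 8391 and 5501 of it, so that this sum mostly followed Slpi. On chip B (2 genes, with Wt1 alone above the floor) it was 4797 in DU6, 3928 in DU6i, 6928 in DUKs and 6942 in DBA. The median log2 ratio of the list in DU6i vs DBA was -0.50.

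Adipocyte markers, which define the labelled tissue, were present in all pools. Of 20 on the list, 17 had a probe set above the floor on at least 1 array, and Adipoq, Fabp4 and Lep were above it on all 4. In DU6i vs DBA their median log2 ratio was 0.81, opposite in sign to that of the members, and on chip A their summed intensity was 149802 in DU6, 365955 in DU6i, 250205 in DUKs and 197488 in DBA. On chip B the sums were 249411, 153815, 272185 and 146917. The adipocyte sum was highest in DU6i on chip A, where the members were mostly lowest, and highest in DUKs on chip B. The part of the adipocyte content in the members' result was not tested. Krt8 had the same order of lines on both chips.

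**Figure D4:**
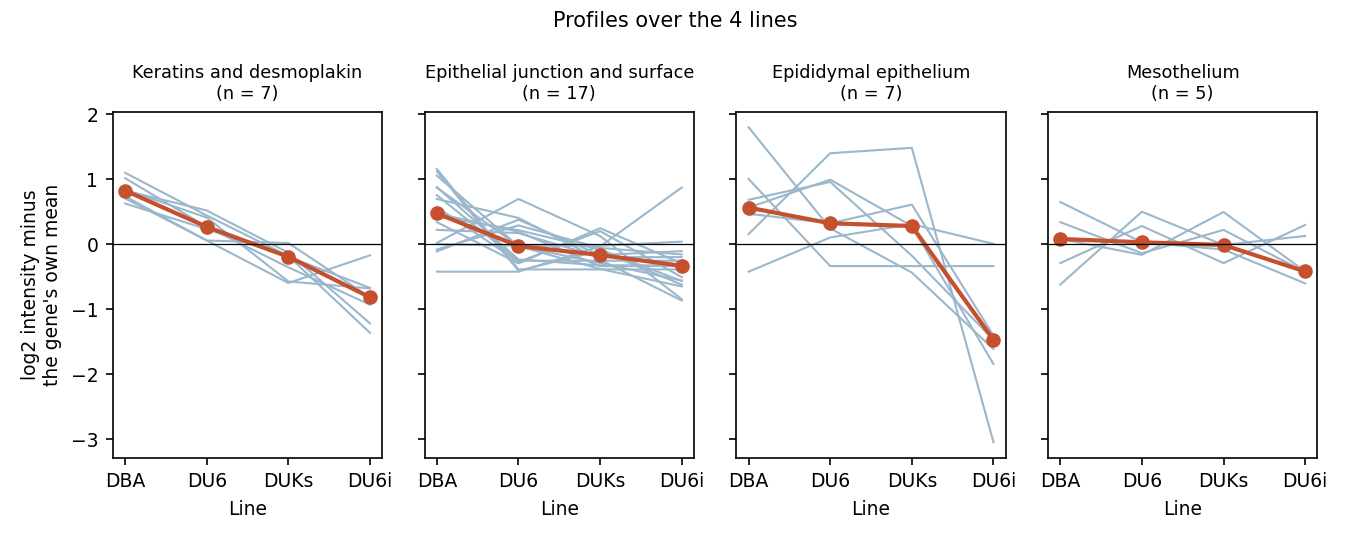
Profiles over the 4 lines of log2 intensity less each gene's own mean, for the members and for 3 gene lists (thin lines, 1 per probe set or gene; thick line, the median at each line; signals under the floor set to it; lines in the order of Krt8, taken from these data). The members fall from DBA to DU6i, apart from a rise of Krt19 at DU6i, epididymal markers drop mainly at DU6i, and the 5 mesothelial markers cross each other.

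The probe sets most like each member were found by the root mean square difference of the log2 profiles over the 4 lines, each centred on its own mean. They were sought on the same chip, among 3056 or 3057 named probe sets of chip A or 811 of chip B. For Krt7 they were Nt5dc3, Erbb3 and Mcrs1 (differences of 0.031, 0.069 and 0.070). For Krt8 on chip B they were Capg, Mdk and Krtcap2 (0.13, 0.14 and 0.16), and for Krt18 Purb, Pycrl and Plekhh1 (0.072, 0.094 and 0.15). For Krt19 they were Mfap2, Mrpl23 and Ctcf (0.065, 0.073 and 0.083), and for Dsp Mmp7, Purb and Amot (0.24, 0.24 and 0.24). Mmp7 had intensities of 3479 in DU6, 1314 in DU6i, 3562 in DUKs and 7232 in DBA. Among the members themselves, Krt18 and Dsp differed by 0.25, with Krt18 at rank 4 for Dsp but Dsp at rank 26 for Krt18. Krt7 and Krt18 differed by 0.26, at rank 34 for Krt18 and 95 for Krt7, so that many probe sets outside the members were nearer. Krt19 and Dsp differed by 0.69. With 4 lines, a small difference is a description of these pools and no test of likeness.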

How the data were processed

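Epididymal fat RNA of 4 mouse lines was measured on 8 arrays, 1 pool per line on each of 2 chips. Per the labels, the authors obtained intensity values from Data Mining Tool 1.2 and Microarray Suite 4.0.1, with a scaling of every array on its full set of probes. The values as deposited are on a linear scale and in part below 0; how they were formed from probe pairs is not given in the sources used here, and scaling fixes the level of an array, not its range. Detection calls were not used here.

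The members and lists were chosen with earlier results of these data known. Probe sets were named from the platform annotation, with symbols updated by gene ID; the 110 AFFX controls were left out. Each chip had a floor: of its negative intensities, 95% were smaller in size. Signals under it were set to it before log2, and a pair of lines was read where at least 1 array was above it; a ratio against the floor is written as "at least". At 2-fold a probe set was counted, a rule of size. Each list gene was read by its brightest probe set. Named were all members, all other keratins above the floor, list genes at 2-fold in a main pair with the 3 brightest of each list, of which not all are printed, and the 3 probe sets most like each member. limma 3.58.1 (R 4.3.3; lmFit, eBayes, 2 residual degrees of freedom, Benjamini-Hochberg over both chips) took probe sets with 2 or more of 4 arrays above the floor and was checked on simulated data. Alternatives were the floor, the log scale, the scaling between arrays, the filter, the probe set and leaving out each line.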

Additional observations from a re-analysis of the deposited data

Results flagged for a closer look

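The 2 main pairs gave opposite directions for all 5 genes, higher in DU6 than in DUKs and lower in DU6i than in DBA, each by the brightest probe set. Of all probe sets, 54.1% were higher in DU6 than in DUKs and 52.5% were lower in DU6i than in DBA. The share with both directions, or with a difference of this size, was not counted. The log2 ratio in DU6 vs DUKs exceeded that in DU6i vs DBA by 3.09 for Dsp, 2.57 for Krt18, 2.50 for Krt8, 1.59 for Krt7 and 1.53 for Krt19. The limit of 2 SDs for such a difference, from genes with 2 probe sets, was 1.09. With 1 pool per line the difference between the pairs was not tested. This difference sets DU6 and DBA against DU6i and DUKs. The pyruvate carboxylase control described above split the lines in the same way, so these pools cannot separate the difference from that split. The part of the control split in the difference was not tested. The direction for Krt7 in DU6 vs DUKs rests on a log2 ratio of 0.04, which was -0.08 with arrays scaled to the median of their signals above the floor.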

How the results depend on the processing

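Of 252 log2 ratios of the 7 probe sets (6 pairs under 6 other settings of floor, log scale and scaling), 236 moved by less than 1 SD of a log2 ratio and 16 by more; 1 changed sign, Krt7 in DU6 vs DUKs. The 16 came with the floor doubled (9) or on the scale of log2(intensity + floor) (7). Of the 5 genes, those at 2-fold or more in DU6i vs DUKs numbered 1, and 0 with the floor doubled, on the scale of log2(intensity + floor) or after quantile normalisation. In DU6 vs DU6i they numbered 3, and 1 on the scale of log2(intensity + floor). In limma's comparison of the sides, 0 members passed under every setting run, and the 0 probe sets overall became 5 with no filter on low signals, where most residual variances are 0 and the fit is unreliable. Leaving out each line in turn gave 0 to 0 probe sets, with a lone line assumed to vary like the others. Signals near the floor, above all Dsp in DU6i (1094 against 1023), limit the size of the ratios.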
